A study of Mus musculus with 2 samples.

Results

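Klf2, Klf4, Klf6, Slco2a1 and Aqp1 are 5 genes linked to blood flow over endothelium, and their levels were followed through the vessel types of the mouse adrenal gland. They were chosen by symbol among the 54838 genes of the deposited single-cell RNA sequencing tables (10x Genomics), and each was found in both libraries. All 5 had at least 50 unique molecular identifiers (UMIs, 1 for each captured RNA molecule) in endothelial cells, as had 12281 genes in all. The cells came from adrenal glands of female mice aged 12 weeks and had been sorted as viable CD31+ CD45- cells. One library was wild type (WT) and the other came from mice labelled VEGF/LysM, in a study of VEGF-A made by macrophages. The labels used here give no alleles for VEGF/LysM, no driver of a recombinase and no number of mice. With 1 library per genotype there was no replicate check, so a difference between genotypes cannot be told apart from one between libraries. Intervals are 95% intervals and cover counting error only.

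Laminar shear stress, the drag of blood along the vessel wall, is sensed at endothelial junctions and channels and passed on through the kinases MEKK3, MEK5 and ERK5 to MEF2 factors. These raise transcription of the zinc-finger factors Klf2 and Klf4, which raise anticoagulant and vasodilator genes such as Thbd and Nos3 and lower inflammatory ones. Klf6 is a related factor known from injury and growth responses, Slco2a1 encodes a prostaglandin transporter and Aqp1 a water channel, and both of these are known to be raised by laminar flow. Klf2, Klf4 and Klf6 can also be induced during tissue dissociation together with Fos, an immediate-early transcription factor, so Fos in the same cells was followed beside them.

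In the GENCODE M21 annotation of GRCm38, the build the deposited data call mm10, Klf2 (ENSMUSG00000055148) lies at chr8:72319033-72321656 on the plus strand and has 3 exons. Klf4 (ENSMUSG00000003032) lies at chr4:55527143-55532466 on the minus strand and Klf6 (ENSMUSG00000000078) at chr13:5861482-5870394 on the plus strand. Slco2a1 (ENSMUSG00000032548) spans chr9:102988712-103096002 and Aqp1 (ENSMUSG00000004655) chr6:55336432-55348555, both on the plus strand. Slco2a1 alone overlapped other annotated genes, and those 4 had 0 UMIs in the retained cells. The 250 bases before the transcription start in RefSeq (GRCm38.p6) are shown for Klf2 and Klf4, the pair that is set side by side in the results. Capitals mark matches, on either strand, to CACCC (the core bound by Klf factors), TGACGTCA (the cyclic AMP response element), TGANTCA (the AP-1 element, bound by Fos with Jun), the CArG box or the MEF2 box.
Klf2 (chr8:72318812-72319061, plus strand): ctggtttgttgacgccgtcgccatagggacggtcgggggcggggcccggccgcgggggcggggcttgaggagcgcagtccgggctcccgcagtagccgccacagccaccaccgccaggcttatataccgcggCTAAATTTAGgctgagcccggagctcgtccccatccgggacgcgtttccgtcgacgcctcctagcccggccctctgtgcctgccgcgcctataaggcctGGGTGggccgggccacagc
Klf4 (chr4:55532476-55532725, minus strand): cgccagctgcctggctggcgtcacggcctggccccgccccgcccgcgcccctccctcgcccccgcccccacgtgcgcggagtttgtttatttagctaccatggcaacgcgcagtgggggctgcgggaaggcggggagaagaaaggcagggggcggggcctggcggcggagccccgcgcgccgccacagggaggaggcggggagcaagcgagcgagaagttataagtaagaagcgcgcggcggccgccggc
The Klf2 stretch held 1 MEF2 box, CTAAATTTAG, from 118 to 109 bases before the start, and 1 CACCC match on the opposite strand. A MEF2 box was found in 2.92% of 32851 mouse stretches of this length and CACCC in 52% of them. The Klf4 stretch held none of the 5 motifs. CACCC occurred 2 times before the RefSeq start of Slco2a1 and 3 times before that of Aqp1. The Slco2a1 stretch (chr9:103008237-103008486) lies inside the GENCODE span given above, as the 2 annotations differ in the start. The Klf2 stretch also ends past the GENCODE start of Klf2. Its CACCC match lies between the GENCODE and RefSeq starts, and its MEF2 box lies before both. No member had an AP-1 element (6.75% of all stretches), a TGACGTCA element (1.55%) or a CArG box (1.47%) in this window. These are letter matches and show no binding.

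The WT library held 6276 barcodes and the VEGF/LysM library 3807, of which 5690 and 3535 were retained as endothelial cells, with a median of 1154 and 2290 UMIs per cell. To set levels at one depth, UMIs were drawn at random from every cell down to 1000, which left out 2110 WT (37.1%) and 278 VEGF/LysM cells (7.86%). The libraries shared 10 barcodes. All 8 pan-endothelial markers had UMIs in every class compared. Clusters were formed without the members, the shear lists and the immediate-early genes. Plvap-high cells (3183 WT and 1801 VEGF/LysM) filled 5 clusters, placed there by their Plvap level. A list of 7 markers of fenestrated capillaries, Plvap among them, was not raised in 1 of the 5 (823 and 612 cells), at a mean log2 ratio of -0.33 against all other cells. Another of the 5 (37 and 107 cells) was led by Ifit3, Isg15 and Cxcl10. A further cluster with Bgn and Sema3d among its leading genes was kept apart as Bgn-led Plvap-high cells (969 and 354). Capillary-like cells (807 and 742) were led by Car4 and Cd36, arterial-like cells (249 and 249) by Tspan8 and Npnt, and tip-like cells (265 and 198) had Kcne3, Apln and Kcnj8 among their leading genes. A cluster with Stmn2, Fbln2 and Fbln5 (Stmn2-led, 70 and 53 cells) was too small to compare between libraries. The draw to 1000 UMIs left out 454 of the 807 WT capillary-like cells, but 185 of the 969 WT Bgn-led cells. In VEGF/LysM it left out 87 of the 742 capillary-like cells. Levels in WT capillary-like cells thus rest on 353 cells. Vegfa had 44 UMIs in the endothelial cells of each library and 0 UMIs in the 73 WT and 71 VEGF/LysM myeloid-like cells, which allows up to 12.7 and 7.07 CPM (counts scaled to 1e6 UMIs), so these data do not check the genotype.

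Klf2 was highest in arterial-like, Bgn-led and Plvap-high cells and lowest in capillary-like cells, in both libraries. In WT its level per 1000 UMIs was 0.754 (0.618 to 0.911) in arterial-like, 0.661 (0.605 to 0.720) in Bgn-led and 0.539 (0.507 to 0.572) in Plvap-high cells. It was 0.415 (0.242 to 0.664) in Stmn2-led, 0.307 (0.237 to 0.391) in tip-like and 0.289 (0.236 to 0.351) in capillary-like WT cells. In this order arterial-like and Bgn-led cells could not be separated beyond counting error, nor could tip-like and capillary-like cells, while Bgn-led cells lay 1.23-fold above Plvap-high cells. In VEGF/LysM the levels were 0.820 (0.727 to 0.921) in Bgn-led, 0.773 (0.731 to 0.816) in Plvap-high, 0.706 (0.599 to 0.826) in arterial-like, 0.565 (0.369 to 0.828) in Stmn2-led, 0.525 (0.429 to 0.636) in tip-like and 0.330 (0.287 to 0.377) in capillary-like cells. The top 3 of these could not be separated, and tip-like cells lay above capillary-like cells. A Klf2 UMI was found in 37.5% of WT and 47.7% of VEGF/LysM Plvap-high cells at 1000 UMIs (43.4% and 67.1% without thinning). Adrenocortical-like cells that had passed the sort, used here as a rough gauge of free RNA at the same depth, showed one in 15.4% of 26 WT and 11.1% of 36 VEGF/LysM cells. They held pan-endothelial markers at a summed 3743 and 2390 CPM. Whether they make Klf2 or Klf4 themselves was not tested.

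Klf4, the partner of Klf2 in the flow response, was distributed differently and was highest in arterial-like cells. Its level there was 0.613 (0.491 to 0.756) in WT and 0.656 (0.554 to 0.772) in VEGF/LysM. Stmn2-led cells held 0.463 and 0.543 and could not be separated from arterial-like cells. Plvap-high cells held 0.299 and 0.278, Bgn-led cells 0.242 and 0.279 and capillary-like cells 0.357 and 0.333. Tip-like cells were lowest, at 0.165 (0.115 to 0.230) and 0.116 (0.0736 to 0.174). Klf4 in capillary-like cells, where Klf2 was lowest, was thus not below its level in Plvap-high cells. A Klf4 UMI was found in 40.1% and 43.4% of arterial-like and 10.8% and 10.1% of tip-like cells, beside 7.69% and 11.1% of adrenocortical-like cells. In VEGF/LysM the last share rests on 4 of 36 cells (3.11% to 26.1%), so it cannot say whether the tip-like share is background.

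Klf6 had its highest estimates in Stmn2-led and capillary-like cells. Stmn2-led cells held 0.537 (0.336 to 0.812) in WT and 0.348 (0.199 to 0.565) in VEGF/LysM, and capillary-like cells 0.360 (0.3 to 0.428) and 0.270 (0.232 to 0.313), and the 2 classes could not be separated in either library. Nor could capillary-like cells be separated from arterial-like cells in WT or from tip-like cells in VEGF/LysM. Plvap-high cells held 0.172 and 0.158, Bgn-led cells 0.148 and 0.166 and tip-like cells 0.179 and 0.192. Arterial-like cells held 0.268 (0.189 to 0.367) in WT and 0.127 (0.0842 to 0.183) in VEGF/LysM. A Klf6 UMI was found in 14.9% and 14% of Plvap-high and 28.6% and 23.4% of capillary-like cells. The shares in adrenocortical-like cells, 3.85% and 19.4%, are no gauge here, since these cells need not lack Klf6.

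Slco2a1, the prostaglandin transporter, was highest in arterial-like and Bgn-led cells. Arterial-like cells held 0.261 (0.183 to 0.359) in WT and 0.253 (0.191 to 0.329) in VEGF/LysM, and Bgn-led cells 0.171 (0.143 to 0.202) and 0.113 (0.0806 to 0.155). Plvap-high cells held 0.0438 and 0.0454, with a UMI in 4.08% and 4.00% of cells. Capillary-like cells had 4 UMIs in 353 WT and 6 UMIs in 655 VEGF/LysM cells, and tip-like cells 4 and 3 UMIs. Adrenocortical-like cells had none in 26 and 36 cells, which allows a share of cells with a UMI of up to 11.5% and 8.33%. The arterial-like shares of 19.0% and 17.6% lie above those limits, and the Plvap-high, capillary-like and tip-like shares below them.

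Aqp1, the water channel, separated the classes most widely. Arterial-like cells held 3.72 (3.41 to 4.05) UMIs per 1000 in WT and 4.96 (4.67 to 5.27) in VEGF/LysM, and capillary-like cells 1.77 (1.64 to 1.92) and 2.10 (1.99 to 2.21). Stmn2-led cells held 0.463 and 0.261. The level in Plvap-high cells was 0.0275 and 0.0245, in Bgn-led cells 0.0115 and 0.0116 and in tip-like cells 0.0425 and 0.0202. A UMI was found in 2.34% and 1.55% of Plvap-high cells, beside 0 of 26 (which allows up to 11.5%) and 8.33% of 36 adrenocortical-like cells (1.75% to 22.5%). With so few adrenocortical-like cells, these shares cannot say whether Aqp1 in Plvap-high cells is background. Its level was 66.4 and 47.6 CPM in 1 of the 5 Plvap-high clusters and 14.7 and 8.86 CPM in another. Arterial-like cells were uneven in Aqp1, with a UMI in 62.7% and 73.3% of them and up to 17 and 28 UMIs in a single thinned cell.

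**Figure D1:**
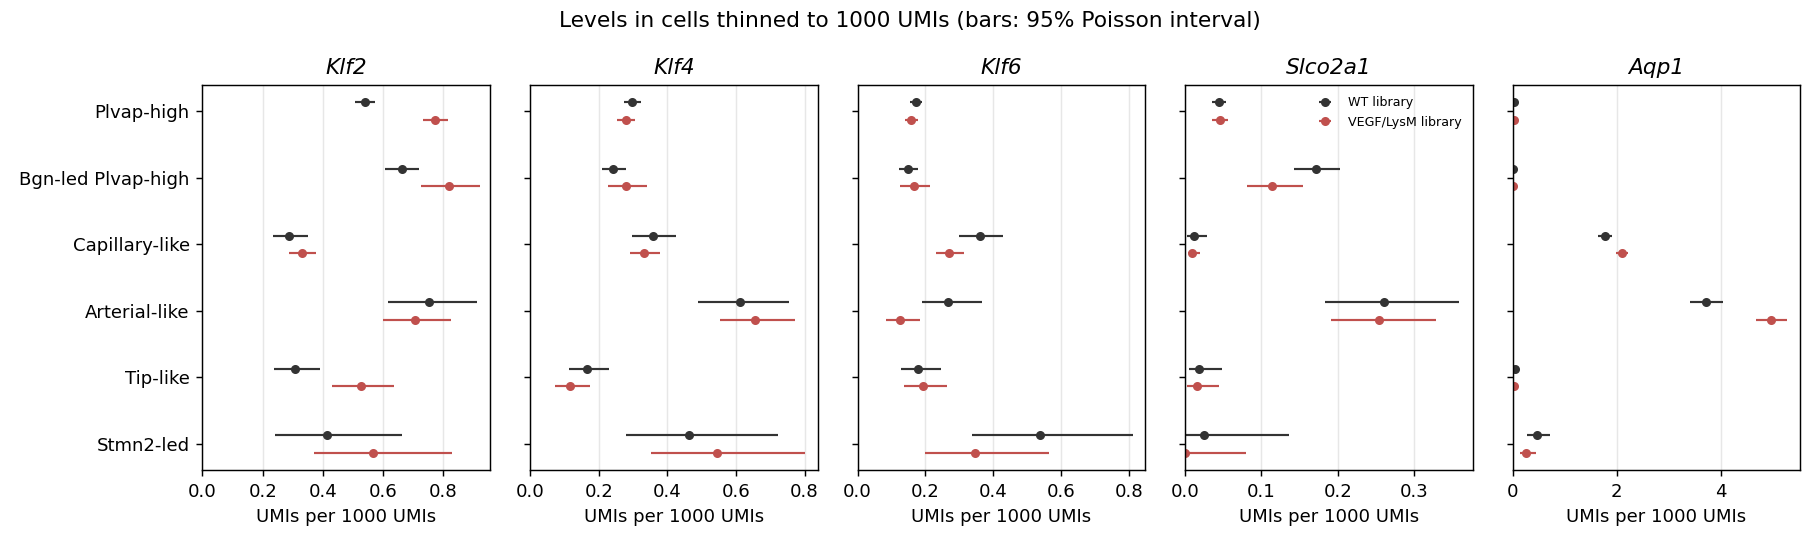
Levels of the 5 members (panels, x axis in UMIs per 1000 UMIs on a scale of its own for each gene) in 6 endothelial classes, in cells thinned to 1000 UMIs, with WT in dark grey, VEGF/LysM in red and bars for 95% Poisson intervals. Klf2 is lowest in capillary-like cells (0.289 and 0.330), where Aqp1 is 1.77 and 2.10, and arterial-like cells lead for Aqp1 (3.72 and 4.96).

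Set against the rest of the endothelium in its own library, 3 of the 5 members were at least 2-fold higher in arterial-like cells of both libraries, where 6.15% of genes in WT and 5.07% in VEGF/LysM were. They were Klf4 (2.14-fold and 2.33-fold), Slco2a1 (3.76-fold and 5.16-fold) and Aqp1 (15.3-fold and 9.61-fold). In capillary-like cells Aqp1 was 7.74-fold and 4.23-fold higher and Klf6 2.02-fold and 1.64-fold, beside 5.26% and 5.35% of genes at 2-fold. Slco2a1 was 7.41-fold and 8.35-fold lower there and Klf2 1.94-fold and 2.21-fold, beside 12.8% and 10.8% of genes. In Bgn-led cells Slco2a1 was 3.39-fold and 1.99-fold higher, beside 1.84% and 2.87% of genes, and Aqp1 was 42.2-fold and 78.6-fold lower, beside 4.37% and 7.18%. In Plvap-high cells Aqp1 was 29.5-fold and 67.7-fold lower and Slco2a1 2.67-fold and 1.79-fold, beside 3.08% and 4.73% of genes. In tip-like cells Slco2a1 was 4.26-fold and 4.36-fold lower, Aqp1 9.48-fold and 43.1-fold and Klf4 1.87-fold and 2.75-fold, beside 9.58% and 10.5% of genes. Other settings ended 3 of the WT calls: on the log2 scale Slco2a1 was -0.74 in Plvap-high cells thinned to 700 UMIs (-1.42 as reported) and -0.39 in tip-like cells thinned to 1500 UMIs (-2.09). Klf6 in capillary-like cells was 0.76 without thinning (1.01). Klf4 in WT tip-like cells was -2.36 at Leiden resolution 2 (-0.90).

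Over 10 endothelial clusters in 2 libraries, 20 points that share libraries, depth and clustering, the members did not follow one pattern. Pearson's r of log2(CPM + 10) was 0.29 between Klf2 and Klf4, -0.38 between Klf2 and Klf6 and 0.73 between Klf4 and Aqp1. Of 4331 genes ranked by this measure, those most like Klf2 were Plscr2 (0.82), Mmrn2 (0.78), Tcaf1 (0.77). Those most like Klf4 were Tnrc6c (0.88), Vegfc (0.88), Tm4sf1 (0.87), of which Vegfc encodes a lymphatic growth factor. Klf6 was nearest to Cdh5 (0.84), Wars (0.83), Rapgef1 (0.82), of which Cdh5 encodes VE-cadherin. Slco2a1 was nearest to Tspan5 (0.91), Dnm3 (0.88), Nfat5 (0.87), and Aqp1 to Aplp2 (0.96), Abcb1a (0.95), Vim (0.92), of which Abcb1a encodes a drug efflux pump. With a pseudocount of 50 CPM, 2 of the 3 nearest genes were shared for each member except Klf6, for which 1 (Wars) was, and Vegfc and Cdh5 were not among them. No p-value is given for these linked points.

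**Figure D2:**
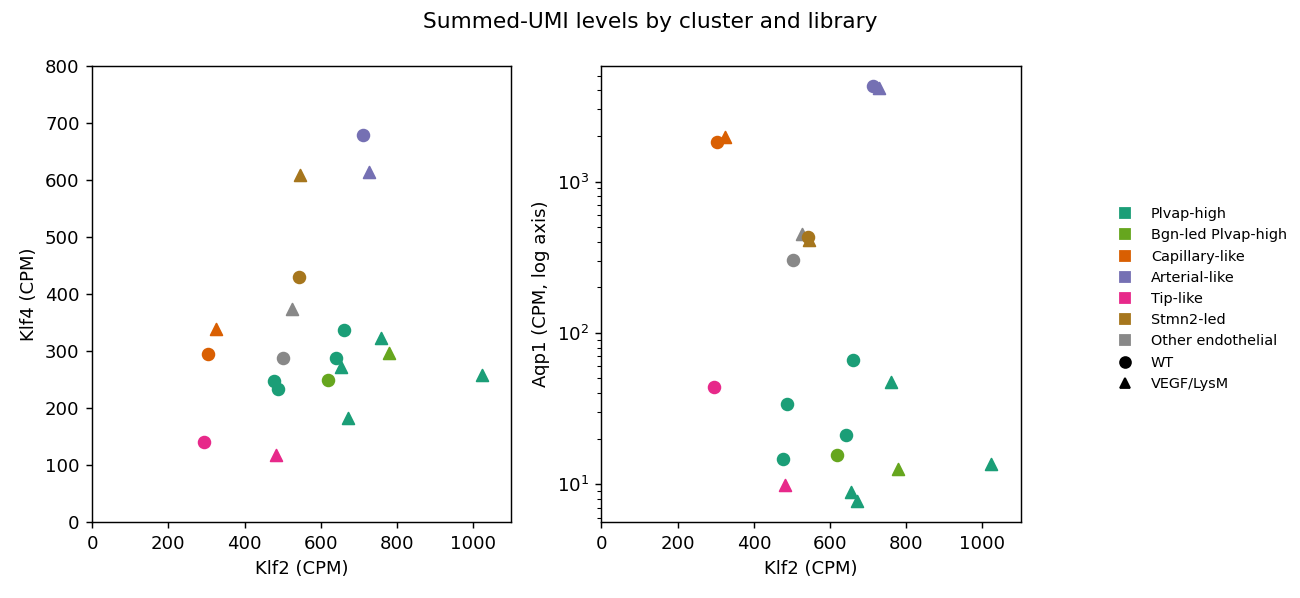
Klf2 against Klf4 (left) and Aqp1 (right, log axis) in CPM of summed UMIs, with 1 point for each of the 10 endothelial clusters that have at least 50 cells in both libraries, coloured by class (circles WT, triangles VEGF/LysM). The arterial-like cluster pairs high Klf2 (712 and 728 CPM) with high Klf4 (678 and 613 CPM), and the capillary-like cluster pairs low Klf2 (304 and 324 CPM) with high Aqp1 (1837 and 1963 CPM).

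Fos was found in a minority of cells. At 1000 UMIs a Fos UMI was seen in 11.9% of WT and 7.47% of VEGF/LysM Plvap-high cells and in 7.08% and 1.37% of capillary-like cells, beside 34.6% and 25.0% of adrenocortical-like cells, which need not lack Fos and so are no gauge for it. Cells with 2 or more Fos UMIs numbered 69 of 1963 WT and 32 of 1674 VEGF/LysM Plvap-high cells. Against cells with 0 Fos UMIs they had more of the immediate-early genes Egr1, by 1.91 and 2.65 on the log2 scale, and Junb, by 1.42 and 1.89. Cdh5, taken as a reference, differed by -0.01 (-0.35 to 0.32) and 0.11 (-0.42 to 0.60).

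Klf4 was higher in the Fos-positive Plvap-high cells of both libraries. Its level per 1000 UMIs was 0.284 in WT cells with 0 Fos UMIs, 0.360 with 1 and 0.523 with 2 or more. In VEGF/LysM it was 0.272, 0.291 and 0.564. The log2 ratio of 2 or more over 0 was 0.88 (0.35 to 1.37) in WT and 1.05 (0.28 to 1.73) in VEGF/LysM. Because a single thinning decides which cells keep 2 Fos UMIs, the mean of 20 thinnings was added after seeing the data, and gave 0.72 (0.15 to 1.25) and 0.64 (-0.38 to 1.51), the latter within counting error.

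Klf2 was higher in Fos-positive Plvap-high cells of the WT library, and no such difference was resolved in VEGF/LysM. In WT its level was 0.512 with 0 Fos UMIs, 0.665 with 1 and 0.915 with 2 or more, a log2 ratio of 0.84 (0.45 to 1.21). In VEGF/LysM it was 0.779, 0.743 and 0.564, a ratio of -0.47 (-1.23 to 0.20). Over 20 thinnings the ratios were 0.56 (0.14 to 0.96) and -0.07 (-0.81 to 0.58). With cells split by the summed immediate-early list without Fos, the Klf2 estimates were 0.27 in WT and 0.66 in VEGF/LysM, given here without intervals. The sign of the VEGF/LysM estimate thus differed between the splits, and the interval of the split by Fos included 0. The difference between the libraries in this relation was not tested. Klf6 differed by 0.40 (-0.45 to 1.15) and 0.03 (-1.60 to 1.28), within counting error. Among genes with at least 10 UMIs expected in the Fos-positive cells, 2 of 3 members (Klf2 and Klf4) were at least 1.5-fold higher in WT, beside 5.78% of genes. In VEGF/LysM only Klf2 reached that expectation and it was not higher, beside 6.4%. These calls come from 1 thinning, whose WT Klf2 ratio was the highest of the 20 (0.30 to 0.84). Over the 20 thinnings the WT means were 1.48-fold for Klf2, under the limit, and 1.65-fold for Klf4.

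With any Fos UMI as the limit, averaged over 20 thinnings, the other classes could be read too. In Bgn-led cells Klf4 was higher in Fos-positive cells by 1.40 (0.92 to 1.87) in WT and 1.25 (0.45 to 1.98) in VEGF/LysM, and Klf2 by 0.46 (0.11 to 0.80) and 0.12 (-0.48 to 0.68). In arterial-like cells, with a mean of 20.3 and 21.1 Fos-positive cells, Klf2 differed by 0.95 (0.23 to 1.63) and 0.77 (0.08 to 1.41) and Klf4 by 0.91 (0.15 to 1.62) and 0.70 (-0.09 to 1.42). At this limit Klf2 was thus higher in Fos-positive arterial-like cells of both libraries. With 2 or more Fos UMIs, in 9 WT and 7 VEGF/LysM cells of 1 thinning, Klf2 gave 0.71 (-0.40 to 1.66) and -0.66 (-2.95 to 0.92), within counting error. With any Fos UMI, Slco2a1 in arterial-like cells differed by 0.90 (-0.35 to 2.00) and 1.63 (0.61 to 2.55). Aqp1 went the other way, at 2.5 in Fos-positive against 3.88 in Fos-negative WT cells and 2.31 against 5.17 in VEGF/LysM. Its log2 ratios were -0.63 (-1.08 to -0.21) and -1.16 (-1.61 to -0.75), and an Aqp1 UMI was found in 39.1% against 67.2% of WT and 39.1% against 77.3% of VEGF/LysM arterial-like cells with and without Fos. In capillary-like cells, where Aqp1 was also abundant, its ratio was -0.03 (-0.50 to 0.41) and 0.05 (-0.58 to 0.62).

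**Figure D3:**
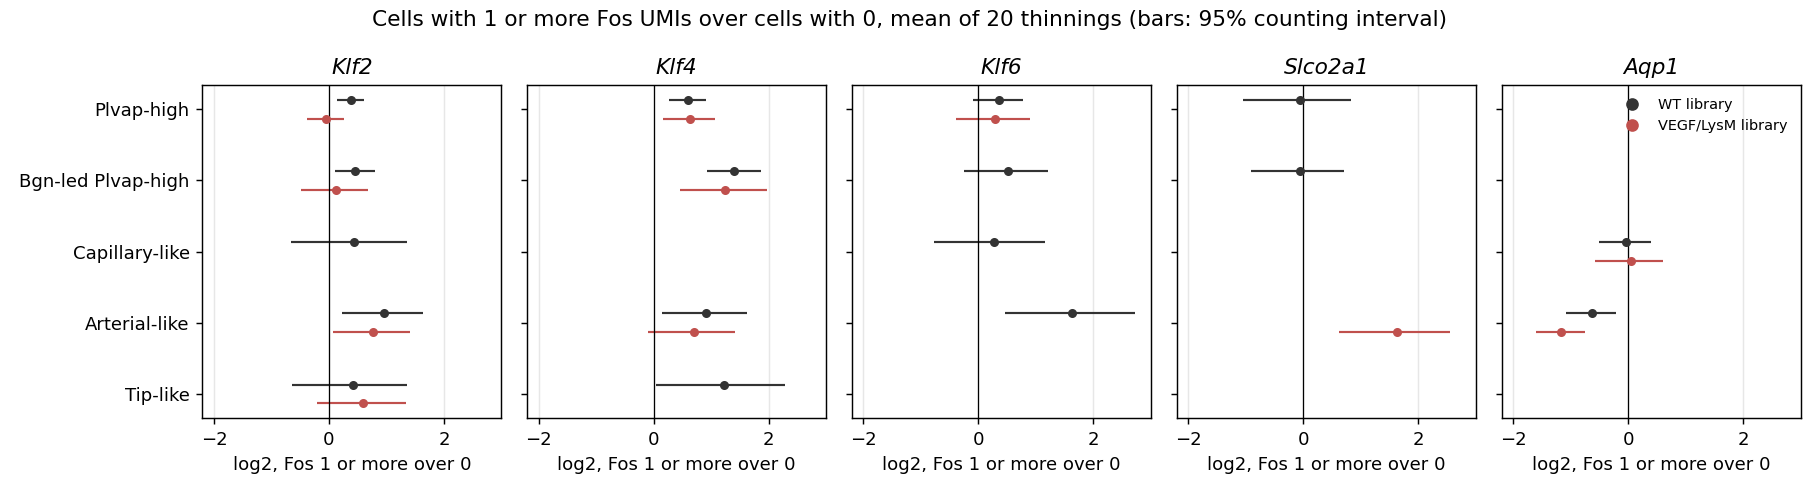
Log2 ratio of each member (panels) between cells with 1 or more and cells with 0 Fos UMIs in 5 classes, as the mean of 20 thinnings to 1000 UMIs, with WT in dark grey, VEGF/LysM in red and bars for 95% counting intervals. Values with under 10 UMIs of the gene in the Fos-positive cells are left out. Klf4 lies above 0 in Plvap-high and Bgn-led cells of both libraries, and Aqp1 below 0 in arterial-like cells of both (-0.63 and -1.16).

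In single Plvap-high cells a Klf2 UMI was found in 52.3% against 33.3% of WT cells with and without a Klf4 UMI, and in 56.2% against 45.3% of VEGF/LysM cells. Spearman's rho of the 2 counts was 0.17 over 1963 WT and 0.11 over 1674 VEGF/LysM cells of 1 library each, weak values in sparse counts that are no finding. In arterial-like cells the shares were 64.9% against 41.2% in WT and 53.1% against 41.6% in VEGF/LysM.

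Between the libraries, Klf2 was higher in VEGF/LysM Plvap-high cells. Its level there was 564 and 734 CPM in WT and VEGF/LysM, a log2 ratio of 0.38 (0.30 to 0.46) or 1.3-fold, where the median over all genes was -0.03. By cluster the ratio ran from 0.20 to 0.67 and was above 0 in all 5 Plvap-high clusters, with an interval that reached below 0 in the smallest (37 WT and 107 VEGF/LysM cells). In Bgn-led cells, at 619 and 779 CPM, it was 0.33 (0.19 to 0.47) and in tip-like cells, at 294 and 482 CPM, 0.71 (0.40 to 1.03). In capillary-like cells, at 304 and 324 CPM, it was 0.10 (-0.11 to 0.30) and in arterial-like cells, at 712 and 728 CPM, 0.03 (-0.21 to 0.27), within counting error. The difference between classes was not tested.

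The Klf2 ratio differed with depth. In Plvap-high cells from 1000 to below 2000 UMIs it was 0.48 (0.35 to 0.62) and from 2000 UMIs to below 4000 it was 0.55 (0.38 to 0.72). In cells of 500 UMIs to below 1000 it had the opposite sign, -1.18 (-1.82 to -0.60), with 1220 WT cells at 599 CPM and 127 VEGF/LysM cells at 265 CPM. From 4000 UMIs, with 12 WT and 168 VEGF/LysM cells, it was -0.01 (-0.47 to 0.48). In the bin below 1000 UMIs the Klf2 ratio was also negative in capillary-like cells, -1.17 (-2.42 to -0.13), and in Bgn-led cells, -2.27 (-7.59 to 0.25), and Aqp1 in Plvap-high cells gave 1.92 (0.96 to 2.81). These bins were added after seeing the data. Thinned to 1000 UMIs the ratio was 0.52, and with the same mix of Fos levels in both libraries 0.53. Fos itself was lower in VEGF/LysM Plvap-high cells, -0.43 (-0.60 to -0.26). Summed myeloid markers in Plvap-high cells were at 119.8 CPM in the WT library (6 of 8 with a UMI, Csf1r and Adgre1 at 0) and at 179.8 CPM in VEGF/LysM (7 of 8, Ptprc at 0). Adrenocortical markers were at 29.1 CPM (7 of 8, Cyp11b2 at 0) and 18.9 CPM (6 of 8, Cyp11b2 and Mc2r at 0). The part of these markers and of depth in the Klf2 difference was not tested.

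Klf4 gave no such difference over all Plvap-high cells. It was at 278 and 277 CPM, a log2 ratio of -0.01 (-0.13 to 0.11), and -0.41 (-0.65 to -0.17) among cells from 1000 to below 2000 UMIs. It was 0.25 (0.03 to 0.48) in Bgn-led, 0.20 (-0.0046 to 0.41) in capillary-like, -0.15 (-0.40 to 0.11) in arterial-like and -0.26 (-0.78 to 0.26) in tip-like cells. The Bgn-led value differed with depth. It was -0.06 (-0.75 to 0.56) from 1000 to below 2000 UMIs, -0.33 (-0.69 to 0.03) from 2000 to below 4000 and 2.08 (0.50 to 4.38) from 4000, where it rests on 6 WT cells. Klf6 was at 174 and 170.1 CPM in Plvap-high cells, a ratio of -0.04 (-0.19 to 0.12), and in the first 2 of these bins of depth it was -0.33 (-0.64 to -0.02) and -0.44 (-0.71 to -0.17). In arterial-like cells it was at 261 and 152 CPM, a ratio of -0.78 (-1.23 to -0.33) or 1.72-fold lower, and Fos there was at 241 and 142 CPM, -0.76 (-1.22 to -0.29). The part of Fos in the Klf6 difference was not tested.

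Slco2a1 in Bgn-led cells was at 159.8 and 115 CPM, a log2 ratio of -0.47 (-0.80 to -0.14) or 1.38-fold lower in VEGF/LysM, but it was -0.0025 with a looser cell filter. In arterial-like cells, where it was highest, it was at 264 and 246 CPM, -0.10 (-0.50 to 0.31). Its Plvap-high ratio of -0.35 (-0.62 to -0.07) was 0.051 at matched depth. Aqp1 was at 492 and 716 CPM over all endothelial cells, 0.54 (0.48 to 0.60) or 1.45-fold higher. With an equal mix of clusters that ratio was -0.0018. In the classes that carry the gene it was 0.10 (0.01 to 0.18) in capillary-like cells, at 1837 and 1963 CPM, and -0.04 (-0.14 to 0.06) in arterial-like cells, at 4251 and 4139 CPM. Capillary-like cells numbered 807 of 5690 in WT and 742 of 3535 in VEGF/LysM. Thinned to 1000 UMIs, which left out 107 WT and 28 VEGF/LysM arterial-like cells, the arterial-like ratio was 0.42, and it was 0.93 in cells from 1000 to below 2000 UMIs.

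At a 1.3-fold limit, over members with at least 50 UMIs, 1 of 5 was higher in Plvap-high cells, beside 6.87% of genes. It was Klf2, at the limit. Aqp1, at 32.4 and 20.9 CPM, was the 1 lower, beside 8.59%. Of 4 in Bgn-led cells 0 were higher (10.7%) and 1, Slco2a1, was lower (11.7%), a call not made with the looser cell filter. Of 4 in capillary-like cells 0 were higher (10.6%) and 0 lower (12.7%). Of 5 in arterial-like cells 0 were higher (14.9%) and 1, Klf6, was lower (14.9%). Of 3 in tip-like cells 1, Klf2, was higher (12.6%) and 0 lower (14%), and at Leiden resolution 0.5 the Klf2 ratio of 0.34 was under the limit. Over all endothelial cells 1 of 5, Aqp1, was higher (7.75%) and 0 lower (8.62%). With 1 library per genotype no test stands behind these counts.

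**Figure D4:**
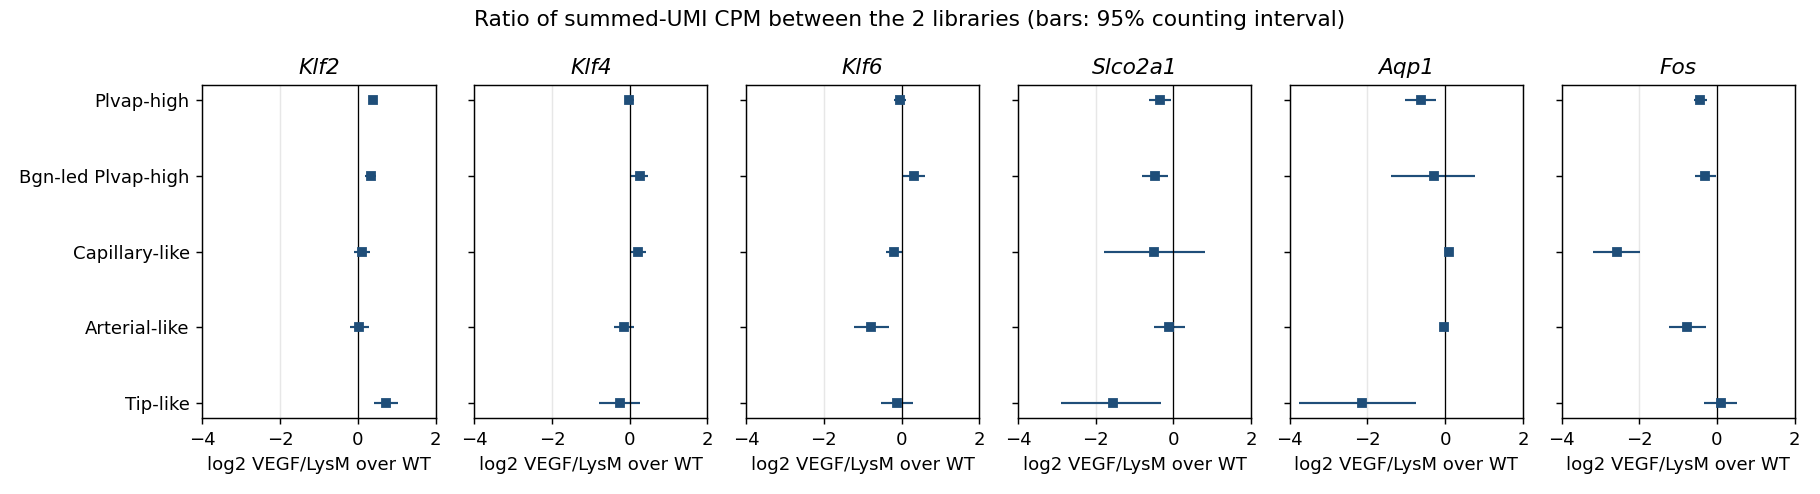
Log2 ratio of VEGF/LysM over WT (x axis) for the members and Fos (panels) in 5 classes, from CPM of summed UMIs (squares), with bars for 95% counting intervals and a line at 0. Klf2 lies above 0 in Plvap-high (0.38), Bgn-led (0.33) and tip-like cells (0.71), and Fos is lowest in capillary-like cells (-2.57).

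Of 18 genes listed as induced by shear or by Klf2 and Klf4, 14 were measured in Plvap-high cells. In VEGF/LysM 1 was at least 1.3-fold higher and 2 lower, beside 6.87% and 8.59% of all genes. Their median log2 ratio was -0.07 beside -0.03 over all genes. Thbd, which encodes the anticoagulant thrombomodulin, was at 307 and 327 CPM, 0.09 (-0.02 to 0.20). Plat, tissue plasminogen activator, gave 0.08 (-0.04 to 0.21) and the matrix protease Adamts5 0.04 (-0.15 to 0.22). The lowest by the naming rule were the connexin Gja4, -0.28 (-0.75 to 0.18), Igfbp5, -0.19 (-0.22 to -0.16), and the sphingosine-1-phosphate receptor S1pr1, -0.14 (-0.24 to -0.03). The 3 genes past the fold, named after their values were seen, were Ass1 (0.60), Hmox1 (-0.46) and Adamts4 (-0.56), and each interval included 0.

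Of 14 genes listed as repressed by shear or Klf2, 9 were measured in Plvap-high cells, and 0 were at least 1.3-fold higher and 5 lower, with a median of -0.57, beside 6.87% and 8.59% of all genes. The summed level of the list was 1428 and 1594 CPM, most of it Esm1. Edn1, which encodes the vasoconstrictor endothelin-1, was at 9.29 and 3.33 CPM, -1.48 (-2.45 to -0.58). Ctgf, a matrix-associated growth factor, was at 19.1 and 9.11 CPM, -1.07 (-1.65 to -0.50), and the peptide gene Apln at 27.1 and 13.3 CPM, -1.02 (-1.50 to -0.56). The other 2, named after their values were seen, were Vcam1 (-0.57 (-0.98 to -0.16)) and Angpt2 (-0.61 (-1.45 to 0.22)). Apln and Angpt2 were on the marker list that named tip-like cells, and Vcam1 on the venous list that named Bgn-led cells. Esm1, on the list of fenestrated-capillary markers, gave 0.25 (0.19 to 0.30) in the other direction, the adhesion gene Icam1 -0.36 (-0.59 to -0.13) and Cyr61 -0.36 (-0.94 to 0.21). In capillary-like cells 5 of the 14 were measured, 0 were higher and 2 lower, beside 10.6% and 12.7% of all genes. Their median was 0.05, or -0.38 with a limit of 20 UMIs in place of 50. Nothing compares this list with other genes beyond these counts.

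All 19 genes of the route from flow sensing to MEF2 were measured in Plvap-high cells, with a median of -0.06. Of these, 0 were at least 1.3-fold higher and 2 lower, beside 6.87% and 8.59% of all genes. The 2 were Mapk7, which encodes ERK5, at 26.6 and 18.0 CPM, -0.56 (-1.0 to -0.13), and Piezo1, a mechanically gated channel, at 119 and 90.0 CPM, -0.41 (-0.60 to -0.21). Map3k3, which encodes MEKK3, gave 0.13 (-0.02 to 0.28) and Map3k2 -0.28 (-0.49 to -0.08). Ccm2 and Pdcd10, whose products restrain MEKK3, gave 0.25 (-0.03 to 0.53) and 0.22 (0.05 to 0.40). Of 9 other Klf genes measured, 1 was higher (Klf8, 0.79 (-0.05 to 1.67), named after its value was seen) and 1 lower (Klf11, -0.44 (-0.75 to -0.14)), beside the same shares of all genes. Their median was 0.02. Klf10 gave 0.09 (-0.08 to 0.25), Klf7 -0.14 (-0.21 to -0.07) and Klf13 -0.14 (-0.25 to -0.03).

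Of 19 immediate-early genes measured in Plvap-high cells, 1 was at least 1.3-fold higher in VEGF/LysM (Cebpb, 0.40 (0.17 to 0.64)), beside 6.87% of all genes. In the other direction 3 were lower (Fos, Egr1 with -0.55 (-0.68 to -0.42) and Socs3 with -0.61 (-1.02 to -0.21)), beside 8.59%. The median was -0.21. Of 15 measured in capillary-like cells 0 were higher and 10 lower, beside 10.6% and 12.7% of all genes, with a median of -0.64 beside -0.02. Fos in capillary-like cells was at 109 and 18.3 CPM, -2.57 (-3.19 to -1.98), where Klf2, Klf4 and Klf6 differed by 0.10, 0.20 and -0.18.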

How the data were processed

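Adrenal endothelial cells of 1 WT and 1 VEGF/LysM library were analysed from the deposited raw UMI counts per gene and cell barcode. Per the submitters' processing notes the authors used Cell Ranger 7.0.1 (the matrix header names 7.0.0) and Seurat with mm10; no source read for this work gives the intron setting or the cell calling. The members and gene lists were chosen with earlier results of these data known.

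Barcodes needed at least 500 UMIs, 300 genes and no more than 15% of UMIs from mitochondrial genes. Scrublet's automatic limit marked 1 and 4 cells, too few to have worked, so the highest-scoring 315 WT (5.02%) and 116 VEGF/LysM cells (3.05%), at a rate of 0.8% per 1000 barcodes, were left out instead. Clustering (scanpy 1.11.5, Leiden resolution 1 with igraph 0.11.9, 2000 variable genes, 30 principal components) held out 90 genes and gave 19 clusters, named from 17 marker lists with limits set after the clusters were seen. The rebuilt names may differ from the study's.

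Levels are UMIs per 1000 in thinned cells with exact Poisson intervals, shares have Clopper-Pearson intervals, and a count of 0 is given the limit of 3 counts. Ratios between libraries are of CPM from summed counts with exact conditional binomial intervals (scipy 1.17.1). No count model or p-value was used, since cells are not replicates. The ratio script was tested on simulated data. Each limit of fold (2 between classes, 1.5 between Fos levels, 1.3 between libraries) was applied to the estimate alone.

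Named were the members, Fos, the 3 highest and 3 lowest genes of each of 5 lists by Plvap-high ratio (at least 20 CPM over all endothelial cells of either library), and the 3 genes most like each member (at least 50 CPM). Alternatives were other cell filters, resolutions, thinning depths, seeds, scalings and mixes of clusters or Fos levels.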

Additional observations from a re-analysis of the deposited data

Results flagged for a closer look

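Klf6 and Aqp1 gave log2 ratios of VEGF/LysM over WT of opposite sign in different vessel classes, with counting intervals that excluded 0 on both sides. The difference between classes was not tested, since each genotype has 1 library. Klf6 was 0.31 (0.02 to 0.61) in Bgn-led cells and -0.78 (-1.23 to -0.33) in arterial-like cells. Aqp1 was 0.0957 in capillary-like cells and -0.63 (-1.03 to -0.24) in Plvap-high cells, where it was low and could not be told from background. In tip-like cells Aqp1 was -2.14 (-3.76 to -0.74), which rests on 18 and 6 UMIs.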

How the results depend on the processing

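The Klf2 log2 ratio of VEGF/LysM over WT in Plvap-high cells stayed above 0 under every alternative run, apart from the bins of depth given in the report. This ratio, 0.38 as reported, was 0.46 with the stricter cell filter, 0.52 after thinning, 0.53 with an equal mix of Fos levels and 0.48 in cells from 1000 to below 2000 UMIs. The stricter filter, thinning and that range of UMIs leave out the cells below 1000 UMIs, where the ratio was -1.18. They could not show that reversal. The Slco2a1 ratio (-0.35) was 0.051 after thinning and 0.038 with an equal mix of Fos levels. The Aqp1 ratio (-0.63) was -0.17 after thinning, -0.11 with each cell weighted equally, -0.21 with an equal mix of Fos levels and of opposite sign, 0.45, in cells from 1000 to below 2000 UMIs. In those cells Klf4 gave -0.41 and Klf6 -0.33. Other reversals were Slco2a1 in tip-like cells from 1000 to below 2000 UMIs (0.93), Aqp1 in tip-like cells at Leiden resolution 0.5 (1.39) and Aqp1 over the whole endothelium when clusters were mixed equally (-0.0018). The WT ratio of Klf2 between cells with 2 or more and 0 Fos UMIs (0.84) was 0.35 and 0.41 with thinning to 700 and 1500 UMIs, 0.43 with a second seed, 0.27 with the immediate-early list and 0.38 with 1 or more Fos UMIs over 20 thinnings. In VEGF/LysM the immediate-early list gave 0.66 (-0.47 as reported). The causes were not tested. Of all alternative values, 330 ratios between libraries stayed within the spread allowed, 45 moved and 4 reversed, and 483 class ratios stayed and 52 moved. The alternatives with 20 thinnings, with 1 or more Fos UMIs and with cells from 1000 to below 2000 UMIs were chosen after seeing the data. No paired analysis was possible because each genotype has 1 library, and for the same reason no library could be left out. Depth limits Slco2a1 and Aqp1 outside the classes that carry them, where values rest on few UMIs.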
